A study of Mus musculus with 12 samples.

Results

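Cellular iron import and ferrireduction were described here from 9 genes of the mouse transcriptome, chosen by name from the 24343 genes measured: Tfrc, Tfr2, Slc11a2, Slc39a14, Slc39a8, Steap1, Steap2, Steap3 and Cybrd1. The choice was made with earlier results of these data known. The paper already reports Tfrc and Slc11a2 as iron responsive, so counts of these genes are not independent of their choice. Transcripts were measured by RNA-seq in HT22 cells, an immortalized line derived from mouse hippocampal neurons, in 12 libraries that formed 4 groups of 3 biological replicates. Cells were transfected with a control siRNA (siControl) or with siRNA against Ncoa4 (siNCOA4), and each was left at normal iron or treated with the iron chelator deferoxamine (DFO) at 100 µM for 24 h (siControl+DFO and siNCOA4+DFO). All 4 groups thus carried transfected siRNA, and all libraries came from this 1 cell line, so that differences between HT22 cells and neurons in tissue are outside these data. The study asked how HT22 cells respond when iron import, release of iron from ferritin, or both are restricted.

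Most cells take up iron bound to transferrin. Transferrin receptor 1, encoded by Tfrc, carries it into endosomes, where a STEAP family ferrireductase reduces the iron and a divalent metal transporter such as DMT1 (Slc11a2) moves it into the cytosol. The zinc and iron transporters ZIP14 (Slc39a14) and ZIP8 (Slc39a8) import iron that is not bound to transferrin. Ncoa4 encodes the receptor that delivers ferritin to lysosomes, the route by which stored iron is released. Iron regulatory proteins IRP1 (Aco1) and IRP2 (Ireb2) bind stem-loops called iron-responsive elements when iron is scarce, and in the 3′ UTR of Tfrc this binding protects the transcript from degradation.

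Stem-loops of this kind were searched for in the 3′ UTRs of the 9 genes, since such elements are the known iron-sensing feature of Tfrc and of the 3′ end of some Slc11a2 transcripts. The search asked for the loop letters CAGTGN, a C 6 bases before the loop that stands unpaired, and at least 4 of 5 pairs (G-T pairs allowed) between the bases on either side of the loop, on the transcript strand only. Matches were found in 2 of the 9 genes, and the 30 bases around each are shown from 5′ to 3′ with the unpaired C and the loop in capitals.
Tfrc-201 site 1: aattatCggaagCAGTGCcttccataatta
Tfrc-201 site 2: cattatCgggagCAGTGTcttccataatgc
Tfrc-201 site 3: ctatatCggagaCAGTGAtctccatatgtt
Tfrc-201 site 4: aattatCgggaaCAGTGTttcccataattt
Slc11a2-205 site 1: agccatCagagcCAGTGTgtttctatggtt
The sequences and transcript names are those of GENCODE vM21 on GRCm38, the same assembly as mm10. On the plus strand of chromosome 16, the Tfrc sites lie at chr16:32631219-32631248, chr16:32631598-32631627, chr16:32631663-32631692 and chr16:32631710-32631739, and the Slc11a2 site lies on the minus strand at chr15:100395152-100395181. All 5 lie in the annotated 3′ UTR. The 4 Tfrc sites had 5 of 5 pairs, whereas the Slc11a2 site had 4.

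Of 21682 genes with an annotated 3′ UTR, 871 (4.02%) held at least 1 match, 36 held at least 2 and 3 held at least 3. Tfrc was the only one with 4 matches. The paper counts more iron-responsive elements in the 3′ UTR of Tfrc than this search found. A gene without a match may therefore still hold such an element. Because long UTRs hold more letters, the share was also taken among genes of like 3′-UTR length, and was 7.54% of 2813 genes for Tfrc, whose 3′ UTR has 2461 bases, and 7.70% of 2700 genes for Slc11a2, whose longest 3′ UTR has 2653. A match is a description of letters and does not show that a protein binds there. Slc11a2 also has transcripts with another 3′ end that lacks this site, and a gene-level value cannot separate these transcripts.

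**Figure D1:**
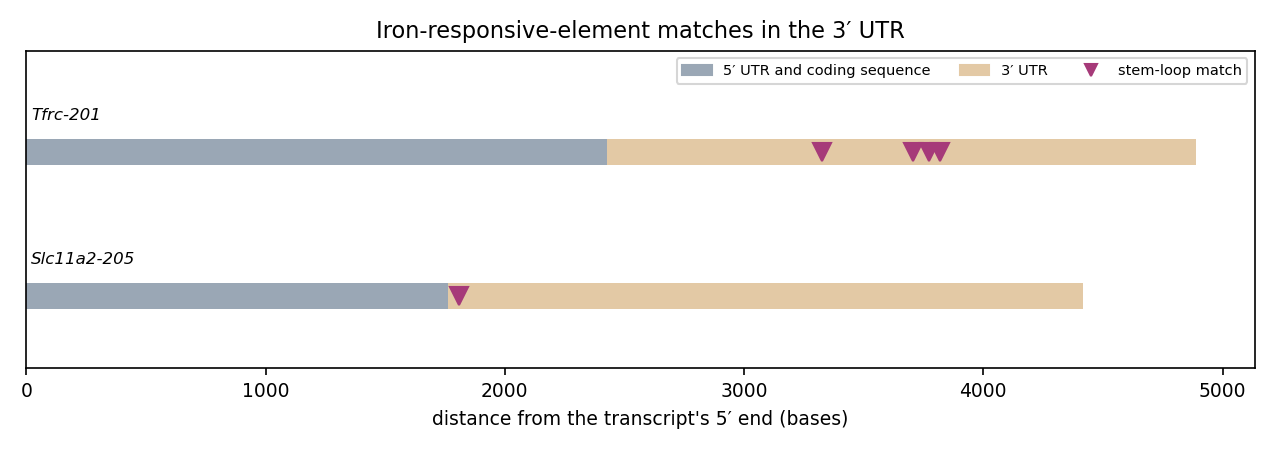
Positions of the stem-loop matches (triangles) along Tfrc-201 and Slc11a2-205, with the distance from the 5′ end of the transcript in bases on the x axis, the 5′ UTR and coding sequence in grey and the 3′ UTR in tan. The 4 Tfrc matches start between bases 3327 and 3818 of the transcript, whereas the Slc11a2 match starts at base 1809, close to the end of the coding sequence at base 1762.

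All values are FPKM as the authors deposited them, a unit that divides the fragments of a gene by its length and by the mapped fragments of the library. Groups were compared with limma after taking log2(FPKM + 0.1), a scale on which the fold changes of low genes are understated. The 11924 genes that reached 0.5 FPKM in 3 or more libraries were tested. Adjusted p values are those of Benjamini and Hochberg over all genes tested in a comparison, and a gene is said to rise or fall where its adjusted p was below 0.05. The stricter threshold of the study also asks for a fold change above 2. With 3 libraries against 3, an exact permutation test of a single gene cannot give a two-sided p below 0.1, so that single genes were tested only in the fit across genes.

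The number of reads behind each library is not contained in FPKM. Relative depth was read from the steps between the low values of 2715 genes and spanned 1.52-fold, from 0.928 (siNCOA4+DFO replicate 3) to 1.41 times that of siControl replicate 1. It was 1.26 to 1.41 in siNCOA4, above every library of the other groups. These lay at 1.00 to 1.25 in siControl, 1.06 to 1.25 in siControl+DFO and 0.928 to 1.20 in siNCOA4+DFO. The part of depth in the results was not tested. Small RNA genes held between 36.4 and 41.3% of the summed FPKM of a library without DFO. This share was higher in every DFO-treated library. The siControl+DFO libraries ranged from 42.2 to 46.0% and the siNCOA4+DFO libraries from 48.1 to 52.4%, so that these groups did not overlap. Ncoa4, the siRNA target, lay between 0.770 and 1.57 FPKM in the 6 libraries labelled siNCOA4 and between 6.02 and 8.70 in the other 6. Of 14 neuron markers, 2 (Tubb3 and Dlg4) had a mean of at least 1 FPKM in siControl, and Slc17a6, Gad1, Chat and Prox1 were listed at 0 in all libraries. Of 5 fibroblast markers, 4 (Col1a1, Col1a2, Pdgfra and Dcn) reached that level. The summed FPKM of the fibroblast list was 1282 to 1574 in siControl, 728 to 930 in siNCOA4, 347 to 464 in siControl+DFO and 394 to 482 in siNCOA4+DFO. Of 5 microglia markers, Tmem119 alone reached it, and the summed FPKM of that list was 10.1 to 11.8 in siControl, 3.79 to 5.67 in siNCOA4, 0.985 to 1.68 in siControl+DFO and 0.457 to 2.01 in siNCOA4+DFO, with P2ry12 at 0 throughout. None of 5 astrocyte markers reached it, and their sum was 0.336 to 0.451, 0.817 to 1.45, 0.668 to 1.56 and 2.85 to 3.31 in the same order of groups, most of it from Aldh1l1. The libraries are bulk RNA of 1 cell line, so that these lists give levels of genes and do not count cell types. In bulk RNA, fewer cells that express a gene and less RNA per cell cannot be told apart. The fibroblast, microglia and astrocyte lists and the share of small RNA genes moved with the treatments together with the genes below, and their part in the results was not tested.

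The 9 genes lie apart from each other in the genome except for the neighbours Steap1 and Steap2. On GRCm38, Tfrc is at chr16:32608920-32632794, Slc11a2 at chr15:100387898-100425072 and Slc39a14 at chr14:70303469-70351425. Steap1 is at chr5:5736317-5749326, Steap2 at chr5:5664829-5694578 and Steap3 at chr1:120190757-120272705. Slc39a8, at chr3:135825279-135888572, overlaps 3 genes of noncoding or unresolved annotation, with which it shares no 75-base transcript window.

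At normal iron, the 9 genes spanned a wide range of levels. Tfrc was the most abundant, with a mean of 70.3 ± 2.02 FPKM (SD, n = 3) in siControl, and 3.92% of all genes had a higher mean. Steap1 (23.6 ± 3.59), Steap3 (19.8 ± 0.332), Steap2 (11.3 ± 0.785) and Slc11a2 (9.02 ± 0.810) followed in that order, and the ranges of the 3 libraries did not overlap between any of these neighbours. Slc39a14 (4.65 ± 0.558) and Slc39a8 (4.56 ± 0.276) overlapped in range and were not separated. The same 5 genes led in siNCOA4, again with ranges apart between neighbours. With DFO the order below Steap1 was less distinct. Slc39a14 came next after Steap1 in siControl+DFO, with a range that overlapped that of Slc11a2, and Slc11a2 overlapped Steap3.

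Tfr2 and Cybrd1 were at or near 0 in all groups and did not enter the test, so that 7 of the 9 genes were tested. Tfr2 encodes transferrin receptor 2, which is best known from liver and erythroid cells as a sensor of transferrin saturation. It was listed at 0 in 8 of 12 libraries, at 0.197 FPKM in siControl replicate 1, at 0.156 in siNCOA4 replicate 2, and at 0.356 and 0.213 in siNCOA4+DFO replicates 1 and 3. After adjustment for relative depth, these values were 1, 1, 2 and 1 times the smallest of them. Cybrd1 encodes duodenal cytochrome b, the ferrireductase of the intestinal brush border. It was listed at 0 in 10 libraries and at 0.0608 in siControl+DFO replicate 1 and 0.0537 in siNCOA4+DFO replicate 2, which are the same step. Of its 75-base transcript windows, 1.25% also occur in other genes. These few steps give no basis for a comparison between groups.

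**Figure D2:**
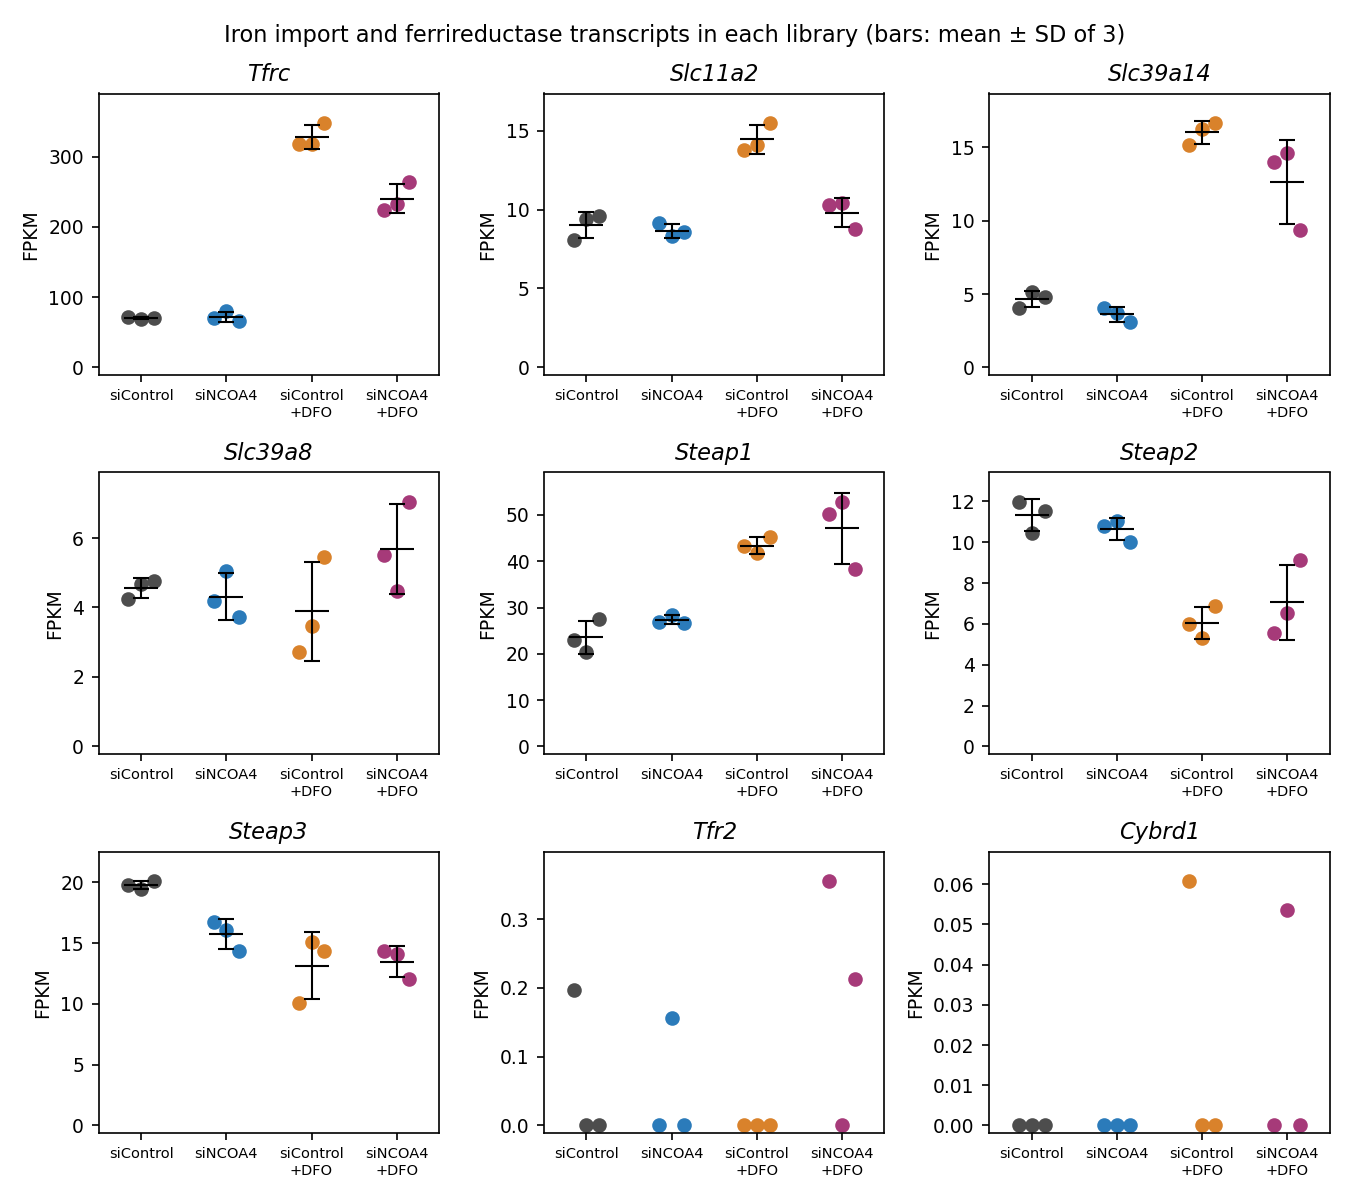
FPKM of each of the 9 genes (y axis, linear) in the 3 libraries of each group (x axis), with dots for libraries and, for the 7 tested genes, bars for the mean ± SD. Tfrc lies between 66.0 and 80.0 FPKM without DFO and between 223.7 and 348.2 with it, and Slc11a2 lies between 13.7 and 15.5 in siControl+DFO, above all libraries of the other 3 groups.

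Iron chelation with DFO in siControl cells changed 6 of the 7 tested genes. Tfrc and Slc39a14 rose more than 3-fold, Steap1 and Slc11a2 rose less than 2-fold, and Steap2 and Steap3 fell. Thus 4 of 7 rose, beside 27.7% of all genes tested, and 2 of 7 fell, beside 25.7%. The stricter threshold with a fold change above 2 was passed by Tfrc and Slc39a14, beside 18.8% of all genes. The median log2 change of the 7 genes was 0.67, and that of all genes tested was -0.01.

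Tfrc was at 72.5, 68.6 and 69.8 FPKM in siControl replicates 1 to 3 and at 318.5, 318.4 and 348.2 in siControl+DFO. All DFO libraries lay far above all siControl libraries, and the mean of 328.4 ± 17.2 FPKM placed Tfrc among the most abundant transcripts, with 0.863% of all genes higher. The fold change was 4.66 (95% interval 4.09 to 5.32), a log2 change of 2.22 with a standard error of 0.087 (limma, adjusted p = 3.08e-09).

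Slc39a14 encodes ZIP14, a transporter that takes up iron not bound to transferrin and also manganese and zinc. Its FPKM was 4.03, 5.12 and 4.79 in siControl and 15.1, 16.3 and 16.7 in siControl+DFO. The groups did not overlap, and the fold change was 3.41 (95% interval 2.62 to 4.43, adjusted p = 4.0e-06). No stem-loop match was found in its 3′ UTR, which has 3200 bases.

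Slc11a2, which encodes DMT1, was at 8.10, 9.39 and 9.58 FPKM in siControl and at 13.7, 14.1 and 15.5 in siControl+DFO. The groups were apart, but the rise was smaller than that of Tfrc or Slc39a14, with a fold change of 1.60 (95% interval 1.35 to 1.88, adjusted p = 2.43e-04). Of its 75-base transcript windows, 2.91% also occur in Gm5475, which overlaps it on the other strand, and the sources used here do not say whether fragments were counted by strand. Slc39a8, which encodes ZIP8, the closest relative of ZIP14, was at 4.25, 4.67 and 4.77 in siControl and at 2.72, 3.48 and 5.47 in siControl+DFO. Its DFO libraries spread on both sides of the control libraries, and its log2 change of -0.28 (95% interval -0.81 to 0.24) did not pass the test (adjusted p = 0.346).

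The STEAP genes, which encode membrane proteins most of which pass electrons from NADPH to metal ions, moved in both directions. Steap3, the endosomal ferrireductase of the transferrin cycle in erythroid precursors, was at 19.8, 19.5 and 20.1 FPKM in siControl and at 10.0, 15.1 and 14.4 in siControl+DFO. It fell by 0.61 on the log2 scale (standard error 0.14, adjusted p = 0.00296). The lowest of these values came from siControl+DFO replicate 1, and without this library the log2 change was -0.43 and still passed the test (adjusted p = 0.011).

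Steap2, a ferric and cupric reductase, was at 11.98, 10.5 and 11.5 FPKM in siControl and at 5.99, 5.30 and 6.87 in siControl+DFO. All its DFO libraries were below all control libraries, with a log2 change of -0.90 (standard error 0.17, adjusted p = 6.29e-04). Steap1, the family member that lacks the NADPH-binding domain of the others, changed the opposite way. It was at 22.9, 20.4 and 27.5 in siControl and at 43.3, 41.7 and 45.2 in siControl+DFO, a log2 change of 0.89 (standard error 0.13, adjusted p = 8.02e-05). Steap1 and Steap2 lie on the same strand with no overlap.

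Silencing of Ncoa4 at normal iron addressed whether depletion of Ncoa4 without DFO alters the import transcripts. Release of iron from ferritin was not measured in these data, and the paper describes NCOA4 as a protein with several functions. None of the 7 genes passed the test at an adjusted p below 0.05, in either direction, beside 4.52% of all genes higher and 7.21% lower in siNCOA4 than in siControl. With the fold change above 2, 0 of 7 passed, beside 1.78% of all genes. At an unadjusted p below 0.05, 1 of the 7 (Steap3) was lower, beside 14.2% of all genes. The median log2 change of the 7 genes was -0.09, and that of all genes was 0.0048.

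Tfrc was at 69.9, 80.0 and 66.0 FPKM in siNCOA4, around the 68.6 to 72.5 of siControl, and the 95% interval of its fold change ran from 0.895 to 1.16. Slc11a2 was at 9.16, 8.30 and 8.55, within the siControl range of 8.10 to 9.58, with an interval from 0.816 to 1.14. Slc39a14 was at 4.08, 3.68 and 3.10, with 2 of the 3 libraries below the lowest siControl value of 4.03 and an interval from 0.603 to 1.02. These intervals leave room for small changes, but none of the 3 reaches a 2-fold change.

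Steap3 was at 16.8, 16.1 and 14.4 FPKM in siNCOA4, below all 3 siControl libraries. Its log2 change of -0.33 (standard error 0.14) had a p of 0.0353 in the fit across genes with limma and an adjusted p of 0.154. Its adjusted p lay between 0.0504 and 0.221 over the alternatives with all libraries, and between 0.0481 and 0.353 when 1 library was left out. It was 0.0481 without siControl+DFO replicate 1, a library outside this comparison that enters through the shared estimate of the spread. Steap1 was at 26.8, 28.4 and 26.7, Steap2 at 10.8, 11.1 and 10.0 and Slc39a8 at 4.18, 5.04 and 3.72, each overlapping its siControl range.

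In Ncoa4-depleted cells, DFO changed 4 of the 7 tested genes. Tfrc, Slc39a14 and Steap1 rose and Steap2 fell, as 3 of 7 higher beside 23.1% of all genes and 1 of 7 lower beside 19.6%. Tfrc and Slc39a14 also passed the fold change of 2, beside 11.4% of all genes. The median log2 change was 0.38 for the 7 genes and -0.0035 for all genes.

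Tfrc reached 223.7, 233.3 and 263.7 FPKM in siNCOA4+DFO, a fold change of 3.34 over siNCOA4 (95% interval 2.93 to 3.81, limma, adjusted p = 5.43e-08). Slc39a14 reached 14.0, 14.6 and 9.35, a fold change of 3.38 (95% interval 2.60 to 4.39, adjusted p = 8.36e-06). The lowest of these came from siNCOA4+DFO replicate 3, and without it the log2 change was 1.96 instead of 1.76. Both genes thus stayed far above their levels without DFO in every library.

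Slc11a2 was at 10.3, 10.4 and 8.74 FPKM in siNCOA4+DFO, so that 1 library fell within the range of siNCOA4. Its log2 change with DFO was 0.17 (95% interval -0.07 to 0.41, adjusted p = 0.227), beside 0.67 in siControl cells. Steap3 was at 14.3, 14.1 and 12.02, below all 3 siNCOA4 libraries by a small margin, with a log2 change of -0.22 (95% interval -0.53 to 0.08, adjusted p = 0.22). Neither gene passed the test in Ncoa4-depleted cells.

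Steap1 was at 50.1, 52.8 and 38.4 FPKM in siNCOA4+DFO, above all siNCOA4 libraries, with a log2 change of 0.77 (standard error 0.13, adjusted p = 3.70e-04). Steap2 was at 5.55, 6.52 and 9.11, below all siNCOA4 libraries, with a log2 change of -0.61 (standard error 0.17, adjusted p = 0.01). In both genes siNCOA4+DFO replicate 3 stood closest to the libraries without DFO, whereas its Tfrc value was the highest of its group. The same library had the highest Ncoa4 of those labelled siNCOA4 (1.57 FPKM). Its relative depth (0.928) was the lowest and its small RNA share (52.4%) the highest of all libraries. The part of these traits in the values was not tested. Slc39a8 was at 5.52, 4.46 and 7.04, with replicate 3 the highest of all 12 libraries, and its log2 change of 0.38 did not pass the test (adjusted p = 0.233).

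**Figure D3:**
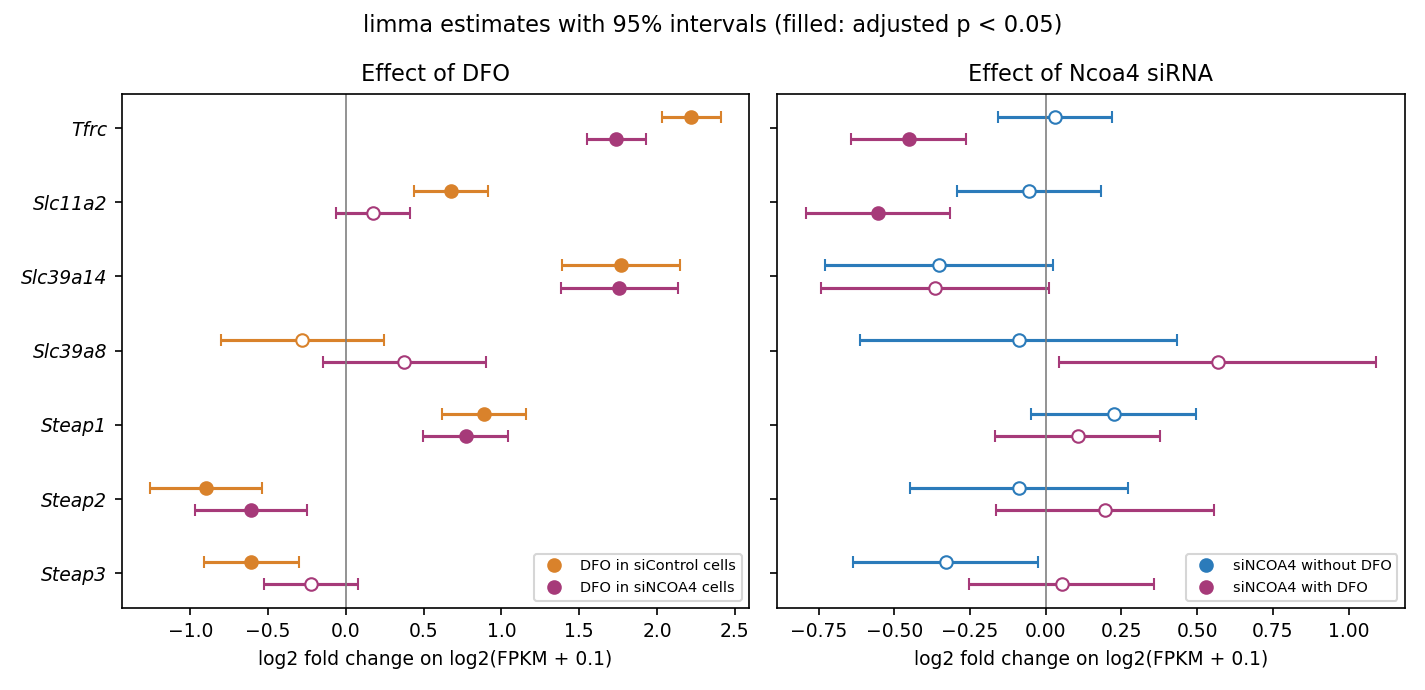
Log2 fold changes (x axis) of the 7 tested genes with 95% intervals from limma, for DFO in siControl and siNCOA4 cells (left) and for Ncoa4 siRNA without and with DFO (right), where filled dots passed an adjusted p below 0.05. With DFO the Tfrc change is 2.22 in siControl and 1.74 in siNCOA4 cells, and on the right only Tfrc (-0.45) and Slc11a2 (-0.56) with DFO are filled.

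Among DFO-treated cells, Ncoa4 depletion went with lower Tfrc and Slc11a2. These were 2 of 7 genes lower, beside 10.2% of all genes tested, whereas 0 of 7 were higher, beside 6.22%. At an unadjusted p below 0.05, 1 of 7 (Slc39a8) was higher, beside 13.9% of all genes. None passed the fold change of 2, beside 2.09% of all genes. The median log2 difference was 0.05 for the 7 genes and -0.0062 for all genes. The paper reports changed morphology and lower viability for cells with both treatments, and no loss of viability with either alone. The part of viability in the values of siNCOA4+DFO was not tested.

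Tfrc was at 240.2 ± 20.9 FPKM in siNCOA4+DFO and at 328.4 ± 17.2 in siControl+DFO (SD, n = 3), and the groups did not overlap. Its level was 0.730 times that of siControl+DFO (95% interval 0.641 to 0.833, limma, adjusted p = 0.00495). This call depended on scaling. After quantile scaling, which gives all libraries the same distribution of values, the log2 difference was -0.23 instead of -0.45 and did not pass the test (adjusted p = 0.184). Over the alternatives with all libraries the adjusted p lay between 0.00446 and this value, and over the libraries left out it lay between 0.00404 and 0.0209.

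Slc11a2 was at 9.81 ± 0.926 FPKM in siNCOA4+DFO and at 14.4 ± 0.927 in siControl+DFO, with all libraries of the former below all of the latter. Its level was 0.680 times that of siControl+DFO (95% interval 0.577 to 0.803, adjusted p = 0.00566), and quantile scaling left it past the test with a log2 difference of -0.51. Slc39a14 was also lower in every siNCOA4+DFO library than in any siControl+DFO library, but its log2 difference of -0.37 did not pass the test (adjusted p = 0.168) and was -0.16 without siNCOA4+DFO replicate 3. Slc39a8 was the gene with the largest higher value, a log2 difference of 0.57 (95% interval 0.04 to 1.09, adjusted p = 0.126). It passed the test without siControl+DFO replicate 3 (log2 difference 0.84, adjusted p = 0.0284), in a range of adjusted p from that value to 0.374 over the libraries left out.

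Whether the response to DFO itself differed between siNCOA4 and siControl cells was tested as an interaction. None of the 7 genes passed, beside 2.10% of all genes tested, and the median was -0.01 both for them and for all genes. At an unadjusted p below 0.05, 2 of the 7 were past, Tfrc and Slc11a2, beside 18.2% of all genes. The interaction was -0.48 on the log2 scale for Tfrc (95% interval -0.75 to -0.22, limma, adjusted p = 0.0649) and -0.50 for Slc11a2 (95% interval -0.84 to -0.16, adjusted p = 0.112). A smaller response to DFO in Ncoa4-depleted cells was thus not shown for either after adjustment over all genes tested. From the RNA-seq data, the paper reports both transcripts as less responsive to iron restriction in these cells. By qPCR it reports no Tfrc response to DFO in such cells, whereas Tfrc rose 3.34-fold in the libraries here. Tfrc passed without siNCOA4+DFO replicate 3 (-0.55, adjusted p = 0.0442), and moved to -0.31 (adjusted p = 0.348) with quantile scaling. Its adjusted p ranged from 0.0442 to 0.133 over the libraries left out and from 0.062 to 0.348 over the other alternatives. For Slc39a14 the interaction was -0.01 (95% interval -0.55 to 0.52).

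With both treatments, 3 of 7 genes were higher than in siControl, beside 25.4% of all genes, and 2 of 7 were lower, beside 23.4%. Those with a fold change above 2 were 2 of 7, beside 15.2%. This comparison shares the siControl libraries with those of DFO and of Ncoa4 siRNA alone. Tfrc was 3.41-fold higher (95% interval 2.99 to 3.88, limma, adjusted p = 2.60e-08) and Slc39a14 2.65-fold higher (95% interval 2.04 to 3.44, adjusted p = 3.30e-05). Steap1 was 1.99-fold higher (95% interval 1.65 to 2.40), and without siNCOA4+DFO replicate 3 its log2 change of 1.13 exceeded a 2-fold change. Steap2 and Steap3 fell by 0.70 and 0.56 on the log2 scale (adjusted p of 0.00375 and 0.00566), and Slc11a2, at 0.12, did not pass the test (adjusted p = 0.396). The median log2 change was 0.29 for the 7 genes and 0.01 for all genes.

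Over the 12 libraries, the log2 values of Tfrc and Slc39a14 went together with a Pearson correlation of 0.96, those of Tfrc and Steap1 with 0.90, and those of Tfrc and Slc11a2 with 0.78. Steap2 went against them, with -0.88 to Tfrc and -0.92 to Slc39a14. The libraries share their DFO treatment, which sets most of these values, so that they are a description. The tested genes with a mean of at least 1 FPKM and the pattern most like Tfrc were Prkg2 (r = 0.995), Ythdf3 (0.994) and Wsb1 (0.993), over the same 12 libraries. Those most like Slc11a2 were Fhdc1 (0.980), Cyth1 (0.964) and Bag5 (0.958). Those most like Slc39a14 were Il6ra (0.992), Plat (0.990) and Mafk (0.990). Wsb1 was at a mean of 54.6 FPKM in siControl, 59.1 in siNCOA4, 242.5 in siControl+DFO and 160.1 in siNCOA4+DFO.

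The genes were then set beside lists of their pathway partners. The counts with DFO in siControl cells are to be read against the 27.7% of all genes tested that rose and the 25.7% that fell. Among partners of the transferrin cycle and of ferritin uptake, 13 of 18 listed genes were tested, and 6 rose and 3 fell with DFO in siControl cells (median log2 change 0.30), with the 3 that fell near the share of all genes. Rab5a, a GTPase of early endosomes, rose by 1.04 on the log2 scale and Vps26a, a subunit of the retromer complex that recycles cargo from endosomes, by 0.98. Picalm, a clathrin adaptor of transferrin receptor uptake, rose by 0.83. Their adjusted p values were 1.79e-05, 7.27e-07 and 3.70e-06 (limma). Lcn2, which binds iron-carrying siderophores, was listed at 0 in all libraries without DFO and at 0.875 to 1.97 FPKM in siControl+DFO. It is counted among the 6 that rose, but it entered the test only through its libraries with DFO. Its rise is therefore not independent of the filter and adds nothing to that count. Trf, transferrin itself, was listed at 0 in all 12 libraries. With siNCOA4 at normal iron 4 of the 13 rose, beside 4.52% of all genes, and 0 fell, beside 7.21%, with Vps26a (log2 change 0.47, adjusted p = 0.00256) among them.

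Among genes that handle imported iron in the cytosol and mitochondria, 12 of 13 listed genes were tested, and 6 rose, beside 27.7% of all genes, and 2 fell, beside 25.7%, with DFO in siControl cells (median 0.20). Those with the lowest p were partly the ubiquitin ligases and adaptors that act on DMT1. Nedd4 fell by 1.21 on the log2 scale (adjusted p = 8.06e-07), whereas its relative Nedd4l rose by 1.01 (adjusted p = 1.63e-05) and the adaptor Ndfip2 rose by 0.82 (adjusted p = 1.83e-04). Slc48a1, a heme transporter of lysosomes, fell by 1.18 (adjusted p = 1.09e-05).

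Other ferric and cytochrome b561 reductases had 6 of 8 listed genes tested, of which 2 rose, beside 27.7% of all genes, and 0 fell, beside 25.7%, with DFO in siControl cells (median 0.32). Prnp, the prion protein, to which ferrireductase activity has been attributed, went from 20.9 ± 1.99 to 50.8 ± 3.26 FPKM (SD, n = 3), a log2 change of 1.28 (adjusted p = 1.10e-06, limma). Frrs1, a ferric-chelate reductase, rose by 0.41 (adjusted p = 0.00128). Cyb561d2 and Cyb561a3, at -0.51 and 0.23, did not pass the test. Of the other ZIP and NRAMP transporters, 8 of 13 were tested, and 2 rose and 3 fell (median -0.14), near the shares of 27.7 and 25.7% of all genes. Slc39a10 fell by 1.11 on the log2 scale, Slc39a3 by 0.88 and Slc39a1 by 0.47, while Slc39a6 rose by 0.49, all of them chiefly zinc transporters. Adjusted p values of these 4 lay between 2.15e-05 and 3.73e-04.

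Of 8 listed regulators of import transcripts, 7 were tested, and 4 rose, beside 27.7% of all genes, and 2 fell, near the 25.7% of all genes, with DFO in siControl cells (median 0.52). Zfp36, which encodes tristetraprolin, a protein that promotes the decay of mRNAs including that of Tfrc, went from 3.80 ± 0.326 to 50.2 ± 4.95 FPKM (SD, n = 3), a log2 change of 3.68 (limma, adjusted p = 1.96e-07). Ireb2, encoding IRP2, rose by 0.52 (adjusted p = 0.00117) and Hif1a, the oxygen-regulated subunit of hypoxia-inducible factor, by 0.58 (adjusted p = 2.0e-05). Arnt, the partner of Hif1a, fell by 0.48 (adjusted p = 8.24e-04), and Aco1, encoding IRP1 and named here after its values were seen, fell by 0.59 (adjusted p = 0.00246). In siNCOA4+DFO relative to siControl+DFO, 2 of the 7 were lower, beside 10.2% of all genes. Zfp36 was lower by a log2 difference of -1.24 (adjusted p = 0.00637) and Hif1a by -0.41 (adjusted p = 0.00256), in the comparison in which Tfrc and Slc11a2 were also lower.

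**Figure D4:**
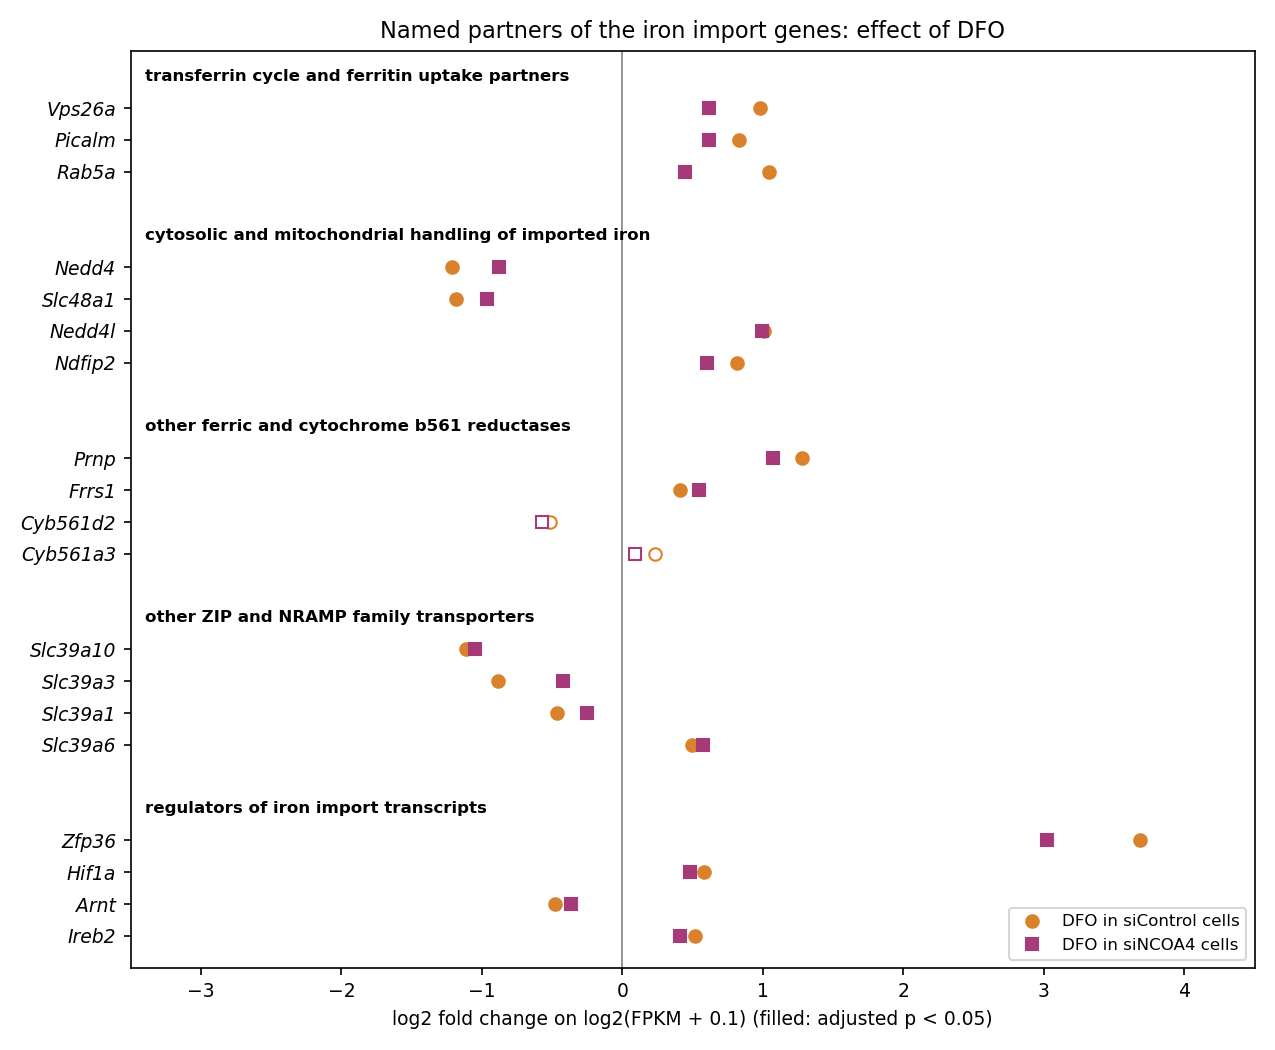
Log2 fold change with DFO (x axis) of the named partner genes in siControl cells (circles) and siNCOA4 cells (squares), grouped by list, where filled symbols passed an adjusted p below 0.05 (limma). Lcn2 is left out because it was listed at 0 without DFO, and every symbol other than those of Cyb561d2 and Cyb561a3 is filled, with Zfp36 the farthest to the right at 3.68 and 3.02.

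In Ncoa4-depleted cells, DFO raised 4 and lowered 2 of the 13 transferrin cycle partners, raised 5 and lowered 2 of the 12 iron handling genes, and raised 2 and lowered 3 of the 8 other transporters. The other reductases had 2 of 6 higher and 0 lower, and the regulators had 4 of 7 higher and 2 lower. Of all genes tested, 23.1% rose and 19.6% fell in this comparison, and several of these counts are near those shares. The 4 raised transferrin cycle partners include Lcn2, which entered the test only through its libraries with DFO. How many of all genes called with DFO in siControl cells were also called in siNCOA4 cells was not taken. The next count is therefore a description only, and it also includes Lcn2. Of the 30 partners over the 5 lists that passed the test in siControl cells, 26 also passed it in siNCOA4 cells in the same direction. The other 4 were Vps35 (log2 change 0.19, adjusted p = 0.0608), Dnm2 (0.18, adjusted p = 0.0576), Lrp1 (-0.23, adjusted p = 0.242) and Glrx3 (0.18, adjusted p = 0.63) in siNCOA4 cells, named here after their values were seen. The interaction was passed by 1 of the 46 partners tested over the 5 lists, near the share of 2.10% of all genes tested. This was Mcoln1, a lysosomal channel in the iron handling list that is named here after its values were seen. Of the partners named by the lists' rule none passed, and adjusted p values were lowest for Rab5a (-0.60, adjusted p = 0.0945) and Vps26a (-0.36, adjusted p = 0.107).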

How the data were processed

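RNA-seq of 12 HT22 libraries was analysed, with groups and replicate numbers from the sample labels. The authors deposited FPKM per gene, 1 table per library. The submitters' processing notes name Trimmomatic 0.33, FastQC, HISAT2 2.1.0, featureCounts, edgeR and mm10. The study's methods give edgeR as the tool for normalization and differential expression, while the tool and annotation that produced the FPKM are not given in the sources used here. Libraries were made with a stranded total RNA kit. Each table held 24347 entries, of which 4 that shared a name were left out, and 6929 of the 24343 kept were at 0 in all libraries. FPKM are not counts, so no count test was run and no counting interval or total depth can be given. Relative depth came from the steps between values under 0.5 FPKM.

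Values were used without further scaling (median-of-ratios factors 1.00 to 1.01). On log2(FPKM + 0.1), limma 3.58.1 (R 4.3.3) fitted 1 mean per group to the 12 libraries together, with a mean-variance trend (8 residual and 4.07 prior degrees of freedom), for the 11924 genes that reached 0.5 FPKM in 3 or more libraries. Adjustment followed Benjamini and Hochberg over the genes of a comparison. The 6 contrasts share libraries, and nothing in the labels beyond "biol rep" says how replicates were separated. The fit was tested on simulated data. The genes and lists were chosen with earlier results of these data known. All 9 genes were named, with Ncoa4, up to 4 genes per list with the smallest adjusted p for DFO in siControl cells, and the 3 genes most correlated with Tfrc, Slc11a2 and Slc39a14. Other genes are named as chosen after their values were seen. Transcript sequences and coordinates were GENCODE vM21 (GRCm38), read with Python 3.11.15 and pandas 2.3.3. Matplotlib 3.10.9 drew the figures. Alternative settings were 0.01 or 1 as pseudocount, all genes above 0 or a minimum of 2 FPKM, scaling by median of ratios or by quantiles, the replicate number as block, only the compared groups in the fit, no trend in the moderation, and each library left out. Proteomic, western blot and qPCR data were not analysed here.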

Additional observations from a re-analysis of the deposited data

Results flagged for a closer look

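Among the genes that handle imported iron, Mcoln1, which encodes a cation channel of lysosomes able to pass iron, responded to DFO differently in siNCOA4 and siControl cells, and the difference between the responses was tested as an interaction. It was at a mean of 10.9 ± 0.418 FPKM in siControl and 13.4 ± 1.37 in siControl+DFO, and at 10.1 ± 0.842 in siNCOA4 and 20.6 ± 2.39 in siNCOA4+DFO (SD, n = 3). The response in siNCOA4 cells exceeded that in siControl cells by 0.72 on the log2 scale (limma interaction, adjusted p = 0.0408). It is named after its values were seen. It was 1 of 46 partners tested, near the share of 2.10% of all genes tested that passed the interaction. The alternative settings were not applied to Mcoln1.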

How the results depend on the processing

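Of 42 pairs of gene and comparison, 17 passed an adjusted p below 0.05. Over their 357 alternative values the direction was the same in each, and 356 still passed. The exception was Tfrc in siNCOA4+DFO against siControl+DFO under quantile scaling (-0.23, adjusted p = 0.184), which left 1 gene past the threshold there instead of 2. The cause was not tested. When each library was left out in turn, the number of genes past the threshold ranged from 0 to 1 for siNCOA4 against siControl (Steap3 without siControl+DFO replicate 1), from 2 to 3 for siNCOA4+DFO against siControl+DFO (Slc39a8 without siControl+DFO replicate 3) and from 0 to 1 for the interaction (Tfrc without siNCOA4+DFO replicate 3). With the fold change above 2 it ranged from 2 to 3 for siControl+DFO against siControl, where Steap1 reached 1.00 without siControl replicate 3, and from 2 to 3 for siNCOA4+DFO against siControl.

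Changes of sign arose only among values that did not pass the test. Over the libraries left out, the log2 difference between siNCOA4 and siControl ranged from -0.049 to 0.090 for Tfrc and from -0.20 to 0.0093 for Slc39a8, and that between siNCOA4+DFO and siControl+DFO from -0.00069 to 0.35 for Steap2 and from -0.13 to 0.16 for Steap3. The interaction ranged from -0.13 to 0.19 for Slc39a14, which was 0.058 with quantile scaling, and from -0.23 to 0.022 for Steap1.

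The labels do not say whether replicate numbers pair the libraries. Deviations of libraries with the same number in 2 groups correlated at -0.147 to 0.181 (18 pairs, 9039 genes), and those with different numbers at -0.225 to 0.154 (36 pairs). These ranges overlap and cannot decide whether libraries were paired. With a replicate block, 6 genes passed for siControl+DFO against siControl, 4 for siNCOA4+DFO against siNCOA4, 2 for siNCOA4+DFO against siControl+DFO, 5 for siNCOA4+DFO against siControl, and 0 for siNCOA4 against siControl and for the interaction, the numbers found without the block. Over all genes the block moved the calls of siNCOA4 against siControl from 1399 to 1181 and of the interaction from 250 to 171. The depth of the libraries is known only in relative terms, which limits what can be said of Tfr2 and Cybrd1.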
